A study of Solanum lycopersicum with 9 samples.

Results

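A stretch of tomato chromosome 11 beyond PROCERA was read locus by locus in guard cells, which flank each stomatal pore of the leaf and set its width. The stretch holds every listed Solyc11g locus numbered above Solyc11g011260, which is PROCERA itself, up to Solyc11g045000. A locus was kept when at least 1 of the 9 libraries reached a normalized count of 20. This left 434 of the 507 loci listed in the stretch, out of 20386 loci with such a value in the whole table and 23028 listed in all. The members were thus chosen by locus number and selected on their highest normalized count over the 9 libraries. The stretch was also drawn with the pro and M82 values of several of its loci already known, so the counts given here describe it and support nothing by themselves. Position means the order of locus numbers, not a distance in bases, and no base coordinates or sequences were used here.

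Poly A based RNA sequencing gave 3 libraries each of M82, pro and pro17, from guard cells left on epidermal peels after leaves were blended in cold water. In such bulk samples, fewer cells of a type and less RNA per cell cannot be told apart. M82 is the cultivar, labelled sp-/sp, that was used for all plants. The pro line carries a loss of DELLA function, and pro17 (written pro∆17 in the design text) expresses a gain-of-function DELLA. The labels name neither the promoter of that construct nor the lines or plants behind each library, and the p-values reflect library-to-library spread that may be technical. No water-deficit treatment is named for any library, although the series is about DELLA and water-deficit stress.

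PROCERA is the DELLA gene of tomato, and DELLA proteins hold back growth until gibberellin triggers their breakdown. Alleles that lie close together on a chromosome tend to be inherited together. A line made by crossing a mutation into another cultivar can therefore keep a stretch of the donor chromosome around the mutated gene, and genes on such a stretch can differ from the recipient in sequence, copy or activity. Exchange between chromosomes is rare near centromeres, so such stretches can be long there. The comparison of pro with M82 along the chromosome asks whether its differences cluster in neighbouring loci beside PROCERA. The table holds no sequence variants, so carriage of a donor stretch was not tested, and in pro the allele and whatever is linked to it cannot be told apart.

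Recovered depth was 14826561 to 20445679 reads per library. The pro libraries varied most, with a median SD over genes of 0.36 on the log2 scale against 0.21 in M82 and 0.14 in pro17. PROCERA was read in every library and passed limma's test in none of the 3 comparisons. Its log2 difference was -0.06 for pro minus M82, 0.68 for pro17 minus M82 and 0.73 for pro17 minus pro. It read 5628, 5486 and 7448 in pro17, above every library of M82 (3754 to 3934) and pro (2851 to 4507). The table pairs no name or description with any member, so no member is given a role, and markers of guard cells could not be checked.

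Most members differed little between pro and M82, although fewer did so than elsewhere on the chromosome. The median absolute difference between the group means was 0.25 on the log2 scale of normalized count plus 1, against 0.21 over all 20386 loci, and 327 of the 434 members (75.3%) differed by less than 0.5, against 81.5% of all loci, 82.2% of the chromosome 11 loci up to PROCERA and 84.5% of those beyond Solyc11g045000. A few members differed by far more: 9 of 433 tested passed an adjusted p of 0.05 in limma, where 0.21% of all genes tested passed. Of the 9, 3 were higher in pro (0.0764% of all genes) and 6 were lower (0.134%). All 6 losses were near complete, at Solyc11g020180 and at 5 members that stand next to each other, and 2 of the 3 gains were at Solyc11g011340, close to PROCERA, and at Solyc11g030380, which was read almost only in pro. The third gain, at Solyc11g020290, was also seen in part in pro17.

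**Figure D1:**
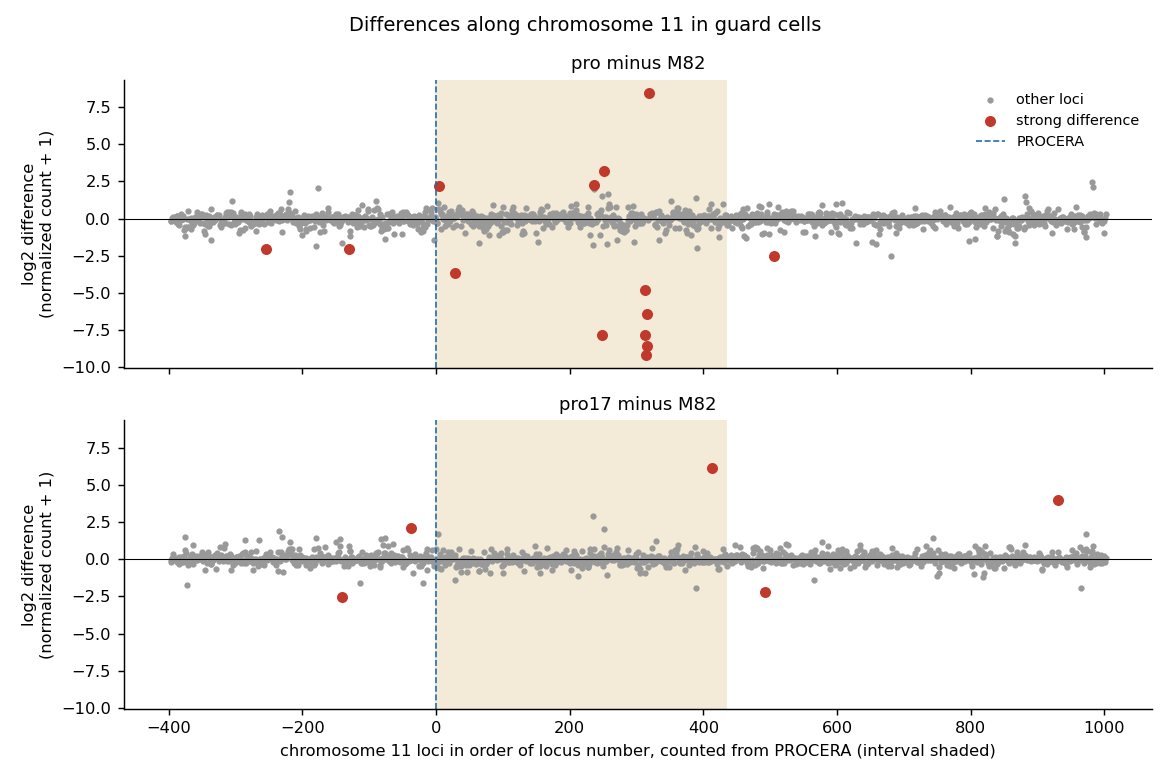
Difference between group means on the log2(normalized count + 1) scale for each of the chromosome 11 loci with a value of 20 or more, in locus order counted from PROCERA, for pro minus M82 (top) and pro17 minus M82 (bottom). Red points are strong differences, of 2 or more with no overlap between the groups. In pro the stretch (shaded) holds 11 red points and the rest of the chromosome 3. In pro17 the stretch holds 1, with 2 among the loci up to PROCERA and 2 beyond Solyc11g045000.

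A difference was called strong when it reached 2 on the log2 scale and the libraries of the groups did not overlap. By this rule 11 members were strong between pro and M82, 4 higher and 7 lower in pro, which is 2.53% of the members against 0.476% of all 20386 loci. The shares were 0.503% (2 of 398) for the chromosome 11 loci up to and including PROCERA and 0.176% (1 of 568) beyond Solyc11g045000. Between pro17 and M82, 1 member was strong (0.230%, against 0.535% of all loci). These shares were not tested against each other. Without overlap at any size, 58 members (13.4%) separated pro from M82, where 9.01% of all genes tested did, and 70 (16.1%) separated pro17 from M82, where 21.1% did. In 42 members (9.68%), against 5.95% of all loci, every pro library lay on 1 side of the other 6, higher in 22 and lower in 20. At an adjusted p under 0.05, the calls in the authors' deposited table were 17 members between pro and M82, 6 between pro17 and M82 and 40 between pro17 and pro, where it called 0.751%, 1.34% and 7.81% of all listed loci.

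The strong members form 1 run, of 5 neighbours, and 6 single loci. The run lies at members 312 to 316 in order, from Solyc11g027986 to Solyc11g028100. Solyc11g027986 read 266, 210.0 and 203 normalized counts in M82, 208, 201 and 212 in pro17, and 0 in every pro library. The M82 libraries held 667 reads of it, so the level in M82 was at least 234-fold higher than in pro, with 3 reads in the pro group taken as the floor (limma, adjusted p = 9.36e-07). M82 and pro17 overlapped, and pro lay below both.

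The next member, Solyc11g028000, is the weakest of the run. It read 46.8, 26.5 and 14.8 in M82, 13.4, 11.7 and 14.5 in pro17, and 0 in every pro library. With 84 reads in M82, its level there was at least 29.4-fold higher than in pro (limma, adjusted p = 0.00230). Here pro17 lay just under the lowest M82 library, and that difference did not pass (log2 difference -0.96, limma adjusted p = 0.670).

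Solyc11g028010 read 1277, 1238 and 1357 in M82, 1316, 1197 and 1218 in pro17, and 2, 0 and 2.69 in pro. With 3851 reads in M82 and 5 in pro, M82 stood 809 times higher per unit of depth (95% interval 346 to 2493, exact binomial, counting error alone; limma, adjusted p = 1.84e-05). No library of M82 or pro17 came near those of pro.

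Solyc11g028080 read 133, 117 and 156 in M82, 152, 145 and 160 in pro17, and 1, 0 and 0.90 in pro. Its 404 reads in M82 and 2 in pro give a ratio of 212 (95% exact interval 58.4 to 1758; limma, adjusted p = 2.67e-05). M82 and pro17 overlapped, and pro lay below both.

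Solyc11g028100, the most abundant of the run, read 3594, 3945 and 3411 in M82, 3697, 3291 and 3653 in pro17, and 17.0, 3.95 and 8.96 in pro. It kept 31 reads over the pro libraries, the most of the 5 members, and its log2 difference was -8.57 ± 0.37 (SE; limma, adjusted p = 1.84e-05). Across the run the M82 means thus spanned 29.4 to 3650 normalized counts, while no pro library exceeded 17.0. In pro17 the run differed from M82 by -0.96 to 0.18 on the log2 scale, and none of the 5 passed.

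**Figure D2:**
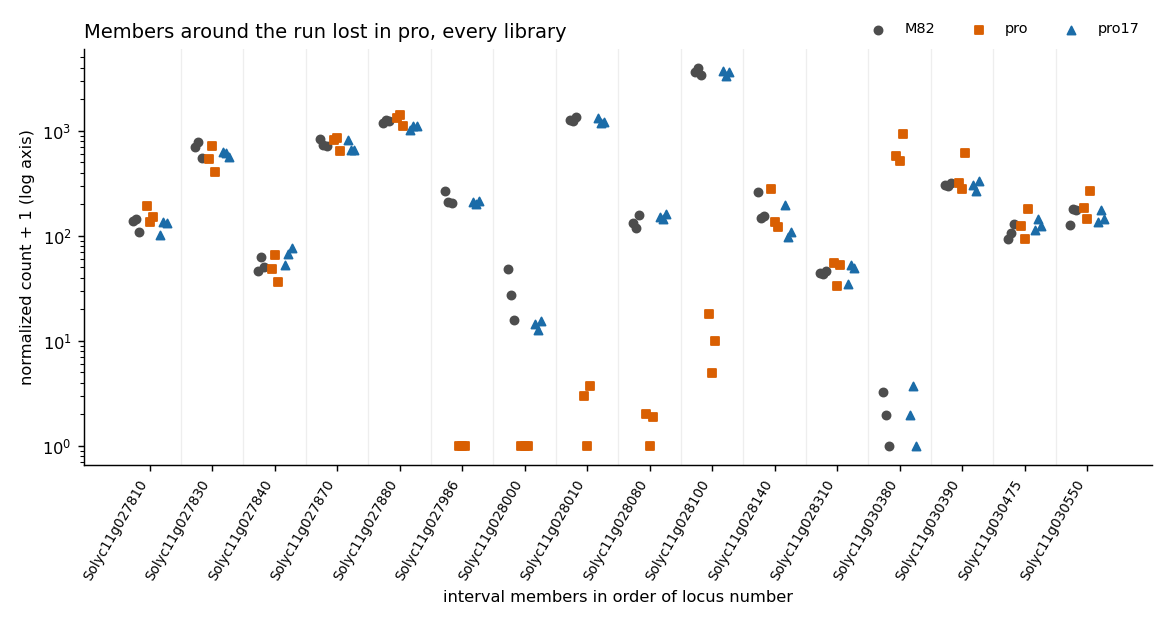
Normalized count plus 1 (log axis) in each of the 9 libraries for 16 neighbouring members, with M82 as circles, pro as squares and pro17 as triangles. From Solyc11g027986 to Solyc11g028100 the pro libraries sit at 17.0 normalized counts or less while M82 and pro17 lie far above them (at Solyc11g028000 with pro17 just under M82, at the other 4 overlapping), and at Solyc11g030380 the order is turned round.

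The edges of the run were sharp. The 10 members before it, from Solyc11g027670 to Solyc11g027880, differed between pro and M82 by -0.31 to 0.29 on the log2 scale, and at none of them did the groups separate. The nearest, Solyc11g027880, read 1179, 1278 and 1228 in M82 and 1337, 1411 and 1121 in pro. On the other side Solyc11g028140 read 260.5, 145 and 152 in M82 and 281, 133 and 120.1 in pro. Solyc11g028310, the member after that, read 43.4, 42.2 and 45.2 in M82 and 54.0, 32.6 and 52.0 in pro. At both members the groups overlapped, with log2 differences of -0.12 and 0.05.

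Past these 2 members lies Solyc11g030380, with the opposite pattern. It read 2.28, 0.98 and 0 in M82, 0.96, 2.69 and 0 in pro17, and 570, 519 and 939 in pro. The pro libraries held 2143 reads, the M82 libraries 3 and the pro17 libraries 4, and the log2 difference of pro minus M82 was 8.45 ± 0.59 (SE; limma, adjusted p = 3.30e-04). The 10 members after it differed by -0.43 to 0.44, again with no separation of the groups. Solyc11g030380 was the last strong member in locus order: the remaining 115, up to Solyc11g044965, held none, and 18 of them (15.7%, against 9.01% of all genes tested) separated pro from M82 by smaller amounts.

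A second group of differences lies earlier, around Solyc11g020180. This member read 250.2, 290.5 and 304 in M82, 299, 330 and 320 in pro17, and 1, 0 and 0 in pro. Its 844 reads in M82 and 1 in pro give a ratio of 887 (95% exact interval 159 to 35058; limma, adjusted p = 7.74e-06). M82 and pro17 overlapped here and pro lay apart.

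Beside Solyc11g020180, by contrast with the members around the run, some neighbours lay apart in pro as well. The next member, Solyc11g020210, read 41.1, 49.1 and 57.2 in M82, 37.4, 47.6 and 38.6 in pro17, and 128, 181 and 122 in pro. It missed the threshold between pro and M82 (log2 difference 1.52 ± 0.23, SE; limma, adjusted p = 0.0520, and 7.95e-06 to 0.287 over the alternatives tried), although all 3 pro libraries lay above the other 6. Against pro17 it passed (log2 difference of pro17 minus pro -1.76; limma, adjusted p = 0.00621).

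Solyc11g020290 read 143, 123 and 69.2 in M82, 777, 677 and 1703 in pro, and 434, 434 and 419 in pro17. The groups do not overlap, with pro17 between the others. Its log2 difference of pro minus M82 was 3.16 ± 0.36 (SE; limma, adjusted p = 0.00863). The call was lost with the replicate number as a block (adjusted p = 0.0531), and when M82 and pro were fitted without pro17 (adjusted p = 0.104, the highest over the alternatives, the lowest being 1.91e-13). In pro17 minus M82 it was 1.996, and did not pass (limma, adjusted p = 0.104, from 2.13e-04 to 0.445 over the alternatives).

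**Figure D3:**
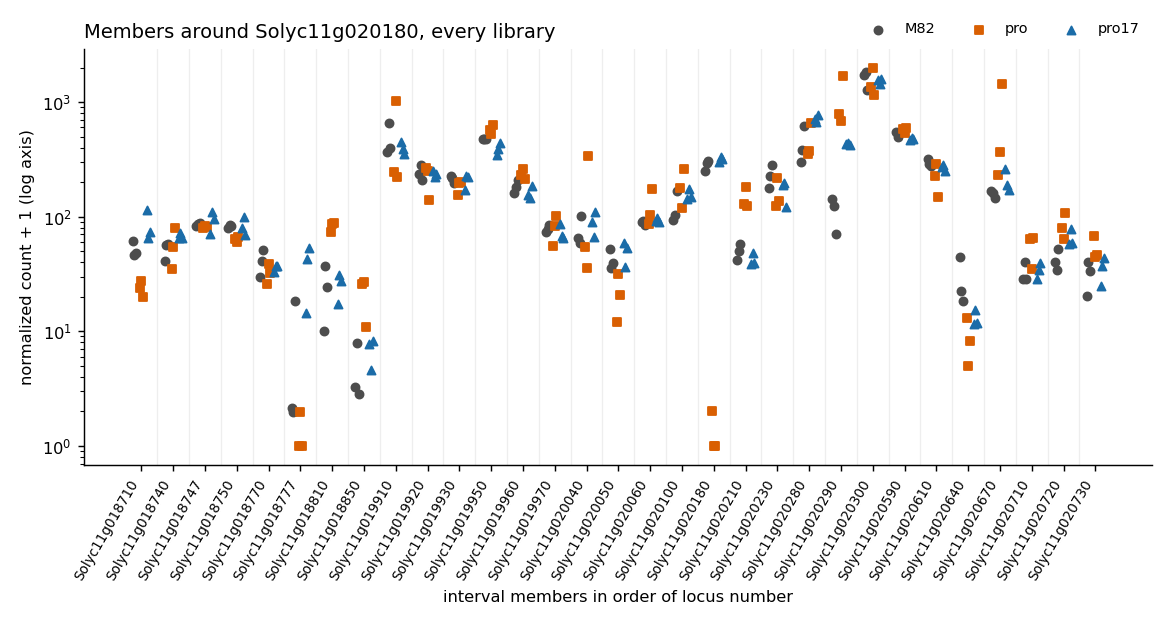
Normalized count plus 1 (log axis) in each of the 9 libraries for the members from Solyc11g018710 to Solyc11g020730, with M82 as circles, pro as squares and pro17 as triangles. At Solyc11g020180 the pro squares fall to the floor while M82 and pro17 stay level with each other, at Solyc11g018777 M82 is low as well, and at Solyc11g020210 and Solyc11g020290 they lie above the other libraries.

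Smaller separations of pro surround this site. In the window of 15 loci from Solyc11g020180 to Solyc11g020770 the median absolute difference between pro and M82 was 0.71, and 7 of the 15 loci separated the groups. The other windows inside the stretch had medians from 0.11 to 0.51 and up to 6 separated loci. The windows that start at Solyc11g018750, Solyc11g027830 and Solyc11g040173 reached 6, the last without a strong member. The 63 full windows elsewhere on chromosome 11 reached at most 0.45 and 5 separated loci. In pro17 minus M82 the same window had a median of 0.18, within the range of 0.09 to 0.39 found outside the stretch, but 6 of its 15 loci separated the groups, where windows outside reached 7. The number of separated loci in this window was therefore close in both lines, and the difference between the lines was not tested.

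Some of this window rests on single libraries. Solyc11g020670 read 229, 365 and 1433 in pro against 144 to 166 in M82, and the high value is that of pro library 3, the library of that group that also stood highest at Solyc11g020290. The difference did not pass (log2 difference 1.65; limma, adjusted p = 0.618, from 0.0267 to 0.962 over the alternatives).

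Solyc11g018810 and Solyc11g018850 lie before this window, with 10 members between Solyc11g018850 and Solyc11g020180. Solyc11g018810 read 9.14, 36.3 and 23.1 in M82 and 72.0, 85.0 and 86.9 in pro. Solyc11g018850 read 2.28, 6.87 and 1.85 in M82 and 25.0, 25.7 and 9.86 in pro. Both lay higher in every pro library than in the other 6, and neither passed limma (adjusted p = 0.281 and 0.339, from 0.00851 to 0.876 and from 0.0884 to 0.921 over the alternatives). The second, strong by the rule above with a log2 difference of 2.23, rests on 11 reads in M82 and 62 in pro.

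**Figure D4:**
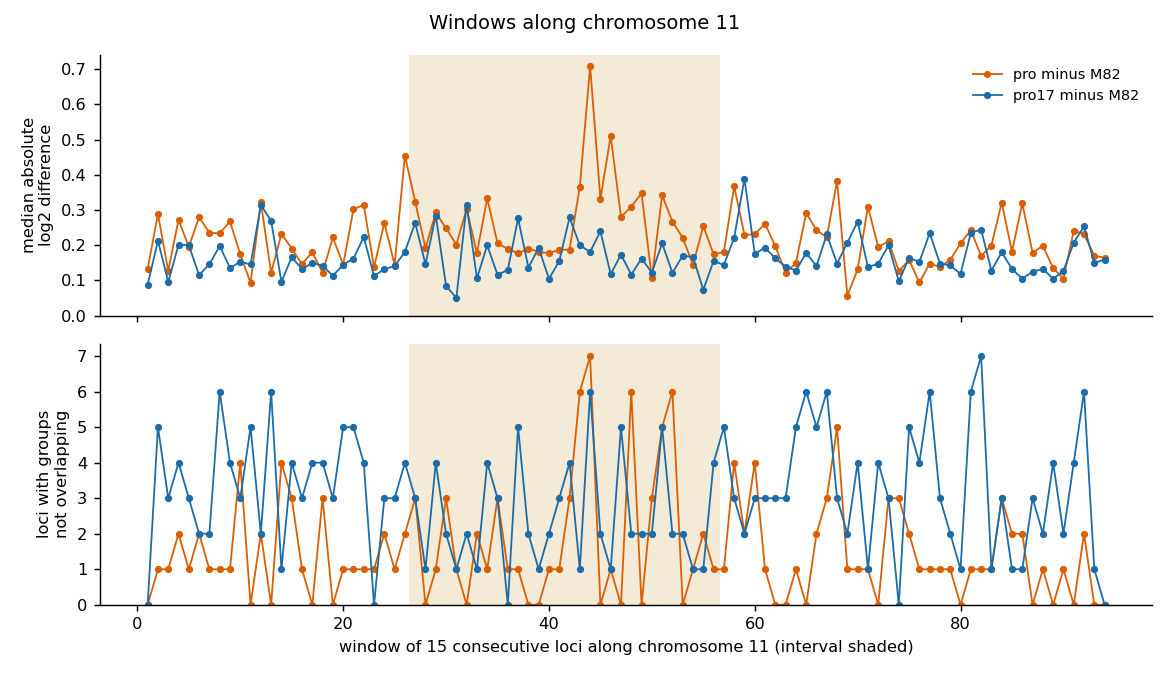
Median absolute log2 difference (top) and number of loci whose groups do not overlap (bottom) in windows of 15 consecutive loci along chromosome 11, for pro minus M82 and pro17 minus M82, with the stretch beyond PROCERA shaded. The highest point of the pro line, 0.71 with 7 separated loci, is the window that starts at Solyc11g020180.

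Close to PROCERA the picture is mixed. The first 3 members, Solyc11g011300, Solyc11g011310 and Solyc11g011330, did not separate pro from M82. The fourth, Solyc11g011340, read 70.8, 72.6 and 84.9 in M82, 348, 326 and 382 in pro, and 50.8, 46.7 and 55.5 in pro17. Its log2 difference of pro minus M82 was 2.20 ± 0.16 (SE; limma, adjusted p = 5.34e-04), and the 3 groups do not overlap, pro17 being lowest. Its neighbour Solyc11g011350 also lay higher in all 3 pro libraries, by 0.64, without passing (limma, adjusted p = 0.629).

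Further on, Solyc11g011570 read 43.4, 30.4 and 36.0 in M82, 2, 6.92 and 0 in pro, and 16.3, 9.88 and 14.5 in pro17. The groups do not overlap and pro is lowest, but the difference did not pass (log2 difference -3.70 ± 0.66, SE; limma, adjusted p = 0.0967). The adjusted p ranged from 3.24e-05 in DESeq2 to 0.492 over the alternatives tried. The M82 libraries held 108 reads of it and the pro libraries 9.

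Between these loci and the group around Solyc11g020180 lies a long series of members at the background level. From Solyc11g011610 to Solyc11g018810, 208 members in a row held no strong difference between pro and M82, and 19 (9.13%) separated the groups, close to the 9.01% of all genes tested. Their median absolute difference was 0.21, equal at 2 decimals to that of all loci. Single members of the series ran from -1.77 to 1.97, and its last, Solyc11g018810, is named above as higher in every pro library. None passed limma, but the authors' deposited table calls Solyc11g012690, Solyc11g012930 and Solyc11g018810 between pro and M82 (adjusted p-values of 0.00504, 0.000325 and 0.00378). The 59 members between Solyc11g020300 and Solyc11g027880 also held none, with a median of 0.32. In locus order, then, the strong members of pro did not run on from PROCERA, and long series of members without one lay between them.

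Outside the stretch, the nearest strong or called chromosome 11 loci for pro against M82 were Solyc11g008640 on the near side and Solyc11g062290 on the far side. Solyc11g008640, 130 loci before PROCERA in this order, read 60.0, 64.2 and 7.17 in pro and 102 to 186 in M82 and did not pass limma. Solyc11g062290, 505 loci after PROCERA, read 13.99, 12.9 and 8.96 in pro and 51.7 to 87.3 in M82, and passed (limma, adjusted p = 0.00762).

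Loci without transcripts in one group were counted by a fixed rule, at most 3 reads over the 3 libraries of the group and a mean of 20 or more in another. By this rule 8 members were silent in at least 1 group, 6 of them in pro, 2 in M82 (0.0687% of all loci) and 1 in pro17 (0.0736%), with Solyc11g044455 silent in both M82 and pro. Over all chromosomes, 17 loci were silent in pro (0.0834%), so 6 of the 17 lie in this stretch, which holds 434 of the 20386 loci. Outside it, no chromosome 11 locus was silent in pro. Solyc11g028010 and Solyc11g028100 kept 5 and 31 reads in pro and are not in the count. Of the 7 loci (0.0343%) silent in pro and at 20 or more in both other groups, 3 are members: Solyc11g020180, Solyc11g027986 and Solyc11g028080.

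Of the other members silent in pro, Solyc11g028000 and Solyc11g044455 are given with the run and with pro17. The last, Solyc11g018777, read 1.14, 0.98 and 17.5 in M82, 0, 0.99 and 0 in pro, and 13.4, 41.3 and 51.9 in pro17. It was low in M82 too, apart from library 3, and separated pro only from pro17 (limma, adjusted p = 0.0298). The call was lost without pro library 1 and without any 1 of the pro17 libraries, with an adjusted p of up to 0.131. The member silent in pro17, Solyc11g042800, read 1.92, 0.90 and 0 there, and 12.99, 3.95 and 78.0 in pro. Its level in pro came mostly from library 3, and it was left out of limma by the filter on low reads.

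**Figure D5:**
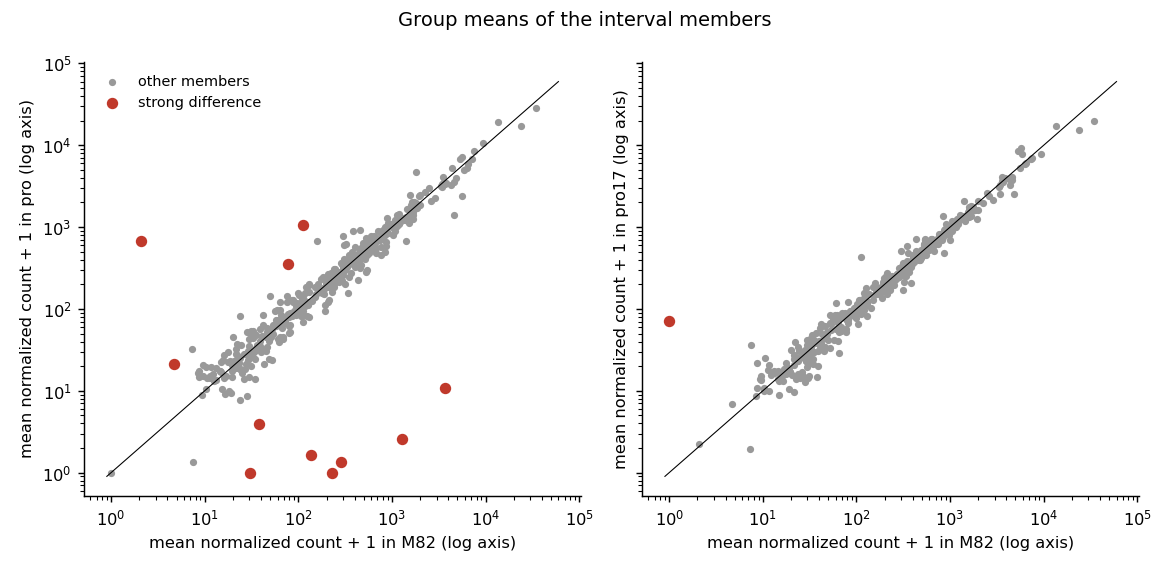
Mean normalized count plus 1 of each of the 434 members in M82 (horizontal, log axis) against pro (left) and pro17 (right), with the line of equal means. Of the 11 strong members of pro, 7 lie below the line and 4 above, and in pro17 the 1 strong member lies at the left edge, at 0 in M82.

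In pro17 the stretch looked almost like M82. The median absolute difference was 0.16, as over all loci, and 1 of 433 members passed (0.231%, against 0.119% of all genes tested). It was higher in pro17, as were 0.0811% of all genes tested, while no member was lower, where 0.0382% of all genes were; 26 members (6.005%) had an unadjusted p under 0.05, against 7.83% of all loci tested, and DESeq2 called 6 members, where it called 1.56% of all genes. Limma's fit to all 9 libraries pools the spread of the 3 groups, of which pro varied most. Fitted to the 6 M82 and pro17 libraries alone, 3 members passed, where 2.17% of all genes did. The member that passed limma over all 9 libraries, Solyc11g044455, read 64.3, 80.9 and 62.8 in pro17 and 0 in all 6 libraries of M82 and pro. With 209 reads in pro17 it was at least 69.5-fold higher than in M82, with 3 reads in the M82 group taken as the floor (limma, adjusted p = 0.00128, and 7.32e-09 to 0.0487 over the alternatives).

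The neighbours of Solyc11g044455 did not share this. The 5 members before it differed between pro17 and M82 by -0.20 to 0.18, and the 5 after it by -0.04 to 0.03. Solyc11g044450 read 264, 301 and 280.0 in pro17 and 230, 244 and 436 in M82, and Solyc11g044470 read 1501, 1724 and 1657 in pro17 and 1631, 1610.4 and 1709 in M82. Solyc11g044455 thus stands alone, with 412 members before it and 21 after it that showed no strong difference between pro17 and M82.

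Between pro17 and pro, 21 of 433 members passed, 4.85% against 3.4% of all genes tested. Higher in pro17 were 15 (2.19% of all genes) and lower 6 (1.21%). Strong differences numbered 13, where 1.53% of all loci had one, and the groups did not overlap in 100 members (23.0%, against 22.9% of all genes tested). These use the same pro libraries as the comparison with M82, so at the run and at Solyc11g020180, Solyc11g030380 and Solyc11g011340 the differences (between -8.40 and 9.12) repeat what was given above. Of the 21 members, 12 passed in neither comparison with M82, and all 12 had the M82 mean between those of the lines. Choosing members in this way favours that order, so the order is not a separate result. Solyc11g012690 read 541, 471 and 469 in pro, 824, 812 and 893 in M82, and 1694, 1192 and 1222 in pro17. It rose by 1.45 ± 0.15 (SE) from pro to pro17 on the log2 scale (limma, adjusted p = 0.00189), a call kept under every alternative tried, and the 3 groups did not overlap. Against M82 neither line passed limma (adjusted p = 0.144 for pro, from 0.00337 to 0.496 over the alternatives, and 0.188 for pro17, from 0.00884 to 0.605). The authors' deposited table calls both, with adjusted p-values of 0.00504 and 0.0117.

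Solyc11g012930 and Solyc11g018710 showed the same order, pro lowest and pro17 highest. Solyc11g012930 had means of 684 ± 152, 1421 ± 232 and 2062 ± 649 in pro, M82 and pro17 (SD, n = 3; limma for pro17 minus pro, adjusted p = 0.0135, and up to 0.0564 over the alternatives). Solyc11g018710 had means of 22.8 ± 3.94, 50.9 ± 8.40 and 83.1 ± 25.5 (adjusted p = 0.0122 in limma, and up to 0.0598). The abundant Solyc11g021060 had means of 2399 ± 1837, 5655 ± 1686 and 9321 ± 1117 (limma, adjusted p = 0.0390, and up to 0.150 over the alternatives). Solyc11g011960 and Solyc11g039953 had the opposite order: the first fell by 0.66 and the second by 0.67 from pro to pro17 on the log2 scale (limma, adjusted p = 0.0215 and 0.0177, and up to 0.118 and 0.0993 over the alternatives).

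None of the most abundant members passed a test against M82. The 4 with the highest M82 means, Solyc11g027770, Solyc11g039860, Solyc11g017010 and Solyc11g013110, stood at 34191, 23862, 13590 and 9278 normalized counts and differed from M82 by at most 0.45 in pro and 0.67 in pro17 on the log2 scale. Solyc11g027770 lies 6 members before the run, and read 37159, 28709 and 19909 in pro against 23094 to 55757 in M82.

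At the threshold, the lowest members were Solyc11g011510, Solyc11g039360 and Solyc11g044740, with highest values of 20.3, 20.6 and 20.7. The loci just left out were Solyc11g011620, Solyc11g044610 and Solyc11g044840, at 19.2, 18.3 and 18.0. Among the 73 loci left out, Solyc11g027775 and Solyc11g042890 had at most 3 reads in pro and more than 6 in each other group: 3 against 7 and 12, and 2 against 10 and 16. At these depths no difference can be read from them.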

How the data were processed

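The authors' deposited table holds a signal value for every gene and library, the normalized counts named in its header row, given to 2 decimals. cutadapt, STAR 2.4.2a, HTSeq and DESeq2 are listed in the submitters' processing notes. The genome build, annotation release and strand setting: not given in the sources used here. Reads of overlapping, antisense or near-identical genes may therefore be split or shared. Groups follow the genotype label, and the titles of pro17 libraries 2 and 3 carry other numbers after the delta sign.

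All values (100.0%, tolerance 0.006) were whole multiples of a step per library, so whole reads were recovered. Each gene was tested with limma (version 3.58.1, R 4.3.3, trend option) on log2 of normalized count plus 1, over all 9 libraries and the 20951 genes kept by edgeR's filter on recovered reads, with Benjamini-Hochberg adjustment over those genes. Low genes have their changes understated on this scale. Alternatives were edgeR 4.0.16 and DESeq2 1.42.0 on recovered reads, other scalings, pseudocounts (0.1 and 5), no filter, 6 libraries only, a replicate block, and single libraries left out. The test was tried on simulated data first. Intervals and floors of 3 reads cover counting error only: no molecular identifiers are named, so PCR copies may be counted among the reads.

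Members and lists were chosen with earlier results of these data known. Named loci are members past the threshold or strong (up to 12 each per comparison), silent members, those at the ends, edges and threshold, the 4 highest in M82, PROCERA, and the nearest strong or called loci outside. Solyc11g020670, Solyc11g018810, Solyc11g011310, Solyc11g011330, Solyc11g011350, Solyc11g044450, Solyc11g044470, Solyc11g027775 and Solyc11g042890 were named after their values were seen. Same-numbered pro and M82 libraries deviated together for numbers 2 and 3 (r = 0.50 and 0.52 over genes), and little for number 1 (r = 0.13). Unlike-numbered pairs of these groups ran from -0.55 to 0.26, the highest being M82 library 1 with pro library 2. The labels do not say what a number marks. The main fit did not pair the libraries, and the number as a block was 1 of the alternatives. The blocked value is given for the call it removed, at Solyc11g020290. Calls that it added between pro17 and pro are given only as a count.

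From the authors' deposited table, log2 fold changes and adjusted p-values are quoted only where that table is named. A RefSeq table (assembly SLM_r2.1) matched 0 identifiers, so no names were added.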

Additional observations from a re-analysis of the deposited data

How the results depend on the processing

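The 5 members of the run, Solyc11g020180, Solyc11g030380 and Solyc11g011340 passed between pro and M82 under each of the 18 alternatives, as did Solyc11g044455 between pro17 and M82. Counts of members moved more, and so did the share of all genes called, given here beside most counts of calls. DESeq2 called 17 members between pro and M82 (0.875% of all genes), 6 between pro17 and M82 (1.56%) and 40 between pro17 and pro (8.84%). With only the 6 libraries compared, 8 passed between pro and M82 (0.112%), 3 between pro17 and M82 (2.17%) and 16 between pro17 and pro (1.38%). With single libraries left out, the counts ran from 9 to 19 (pro against M82), 1 to 3 (pro17 against M82) and 11 to 58 (pro17 against pro). The 19 and the 58 came without pro library 2 (3.61% and 15.1%). Between pro17 and M82, 3 passed without pro library 3 (0.953%) and 2 without pro library 2 (0.418%). The 11, 12 and 12 came without pro17 library 1, 2 and 3 (0.766%, 0.801% and 0.772%). Members whose groups do not overlap numbered 71 to 177, 95 to 166 and 117 to 229 with 1 library less, fewer libraries making separation easier. The shares over all loci were not counted for these settings, so these numbers cannot be read as a trait of the stretch. The highest came without pro library 2 (177 and 229) and M82 library 3 (166). Between pro and M82 the count was 89, 92 and 119 without pro library 1, pro library 3 and M82 library 3. Between pro17 and M82 it was 144 and 111 without pro17 library 1 and M82 library 2, and between pro17 and pro 153 without pro library 3. The silent count of 8 fell to 3 when no read was allowed. The replicate block gave 8 members between pro and M82 (0.162% of all genes, Solyc11g020290 lost) and 1 between pro17 and M82 (0.0573%). It gave 26 between pro17 and pro (4.25%), where same-numbered libraries deviated together little (r = 0.18, 0.06 and 0.02). TMM shifted the median of all genes by at most 0.01.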

Other observations

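The fold changes in the authors' deposited table do not match its own normalized counts at several of these loci. At Solyc11g028010 the authors' deposited table gives a log2 fold change of -1.10, while the ratio of the group means is -9.69 on the log2 scale. At Solyc11g030380 the authors' deposited table gives 1.23 against 9.28 from the means, and at Solyc11g020180 -1.14 against -9.72. Over the whole table, 43 of 116 loci called between pro and M82 with both means at 20 or more differ from the ratio of means by over 0.5, and 61 of 255 between pro17 and M82. None of the 18505 and 18383 loci not called do so, and none of the 1483 called between pro17 and pro. Read down the rows, the called fold changes below -1 in the authors' deposited table move toward 0 at 72 of 80 steps between pro and M82 and at 81 of 84 between pro17 and M82, but at 231 of 471 between pro17 and pro. The fold changes in the text were therefore computed from the normalized counts. Adjusted p-values in the authors' deposited table (DESeq2) also differ at some of these loci. At Solyc11g028100 it gives 4.04e-08 between pro and M82, where DESeq2 on recovered reads gave 2.64e-176. Between pro17 and pro the values there are 7.7e-172 and 1.42e-174. The deposited adjusted p-values are quoted as given.

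Beyond chromosome 11, 11 loci were silent in pro by the same rule, on chromosomes 2, 3, 5, 7, 8 and 10, with 3 on chromosome 7 as the highest number. Solyc03g058370 read 0 in every pro library against a mean of 215 in M82. In pro17 it read 0, 90.7 and 29.0, so 1 pro17 library was also at 0. Near-silent loci in pro are thus not limited to the stretch beyond PROCERA.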
